A study of Mus musculus with 8 samples.

Results

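Conventional CD4 helper T cells were taken from single-cell transcriptomes of MB49 tumors as cells with at least 2 of the T cell genes Cd3d, Cd3e, Cd3g, Trac and Trbc2 detected, Cd4 detected, and Cd8a, Cd8b1, Foxp3, Trdc and Cd163l1 all at 0. This rule took 492 of 29496 cells, out of 2766 cells with at least 2 of the T cell genes. MB49 is a mouse urothelial cancer line, here grown under the skin of the flank with 2 tumors per mouse, and the libraries were made with the 10x Genomics 5′ kit. The 4 libraries numbered 3, 4, 7 and 8 came from Atg7∆/∆ hosts, labelled C57BL/6 UbcreERT2/+;Atg7f/f, and the 4 libraries numbered 1, 2, 5 and 6 from Atg7+/+ hosts, labelled C57BL/6 UbcreERT2/+;Atg7+/+. Per the labels, mice received tamoxifen for 4 days, were injected 1 week later and gave tumors 3 weeks after injection. The inducible Cre was thus carried in both genotypes. It acts across host tissues, is not directed to one cell type, and leaves the injected cancer cells as they were. No age is given in the labels.

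CD4 helper T cells recognise peptides on MHC class II molecules and act mainly through cytokines and surface ligands, among them CD40L, which licenses dendritic cells and B cells. They divide into states named for their cytokines: Th1 cells make interferon gamma, Th2 cells make interleukins 4, 5 and 13, Th17 cells make interleukin 17, and follicular helper cells make interleukin 21. Foxp3-expressing CD4 cells are a separate, suppressive lineage. Atg7 is an E1-like enzyme needed to conjugate LC3 to lipid during autophagy.

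Atg7∆/∆ hosts gave 388 CD4 helper T cells (109, 68, 44 and 167 in libraries 3, 4, 7 and 8), and Atg7+/+ hosts gave 104 (8, 32, 31 and 33 in libraries 1, 2, 5 and 6). With 8 cells, Atg7+/+ library 1 entered the shares of cells and stayed out of the gene tests, which need 10 cells. Whole libraries held 964 to 6070 cells and 4371773 to 59235799 unique molecular identifiers (UMIs), both lowest in Atg7∆/∆ library 7. The median member cell held 3878, 4344.5, 2966.5 and 2315 UMIs in the Atg7∆/∆ libraries, against 2533, 2206, 2118 and 2486 UMIs in the Atg7+/+ libraries (two-sided exact permutation test, p = 0.0857). Cell barcodes split the libraries into the sets 1 to 4 and 5 to 8, each with 2 libraries per genotype: pairs within the second set shared 7 to 46 barcodes, pairs across the sets at most 1. Of the members, 8 had a barcode that also occurred in another library, and 0 barcodes were members in 2 libraries. The labels do not tie libraries to mice, so p-values measure the spread between these tumor libraries.

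Transcripts of other cell types were present in the member cells, in amounts that differed between libraries. Level is used throughout for mean UMIs per 10000 UMIs of a cell. The summed level of 6 fibroblast markers was 126, 9.41, 21.4 and 13.0 in members of Atg7∆/∆ libraries 3, 4, 7 and 8, against 23.1, 0.299, 0.0282 and 9.88 in Atg7+/+ libraries 1, 2, 5 and 6. That of 10 monocyte and macrophage markers was 46.6, 24.3, 1.43 and 8.84 in the Atg7∆/∆ libraries, against 15.4, 5.47, 0.793 and 0.491 in the Atg7+/+ libraries. Both lists overlapped between the genotypes, with library 3 the highest in each. The summed level of 8 malignant urothelial markers was 0.128, 1.58, 0.242 and 0.105 in the Atg7∆/∆ libraries and 6.13, 4.13, 4.48 and 3.64 in the Atg7+/+ libraries, without overlap. No fibroblast or macrophage marker was at 0 in all members, whereas Krt7, Siglech, Ms4a1, Jchain, Ncr1 and Cldn5 were. At least 2 markers of another cell type were detected in 98.2%, 91.2%, 40.9% and 22.2% of members in Atg7∆/∆ libraries 3, 4, 7 and 8, and in 75.0%, 46.9%, 41.9% and 24.2% in Atg7+/+ libraries 1, 2, 5 and 6.

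**Figure D1:**
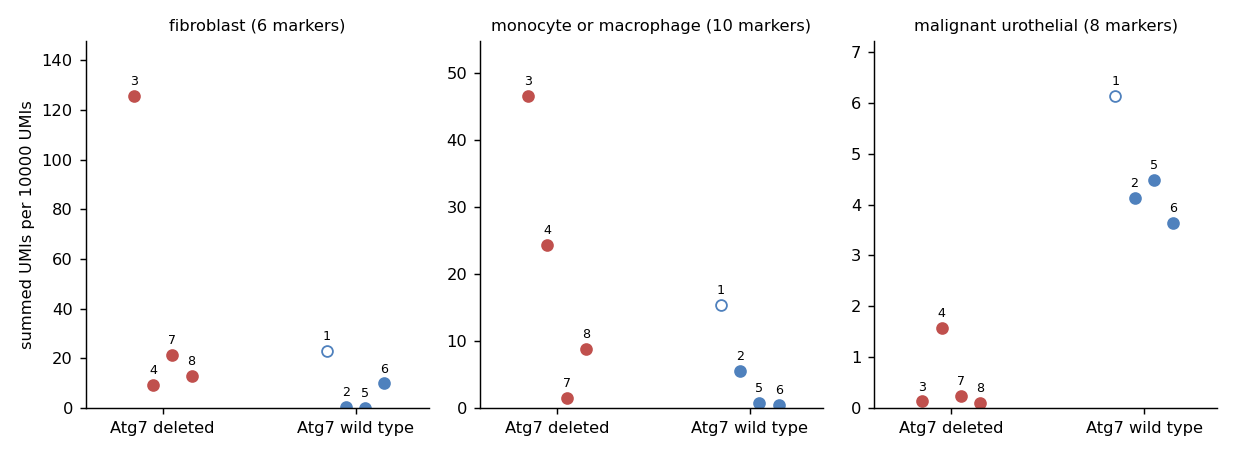
Summed level (mean UMIs per 10000) of fibroblast, monocyte or macrophage and malignant urothelial markers in CD4 helper T cells, 1 point per library, Atg7∆/∆ left of Atg7+/+. Library 3 stands highest for fibroblast (126) and macrophage (46.6) markers, and the malignant markers do not overlap between genotypes.

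The label was checked against Cd40lg (CD40L), Tnfsf11 (RANKL, a ligand of the TNF family), Tnfrsf4 (the costimulatory receptor OX40) and Rora (the nuclear receptor RORα), which the rule did not use but which were chosen with earlier results of these data known. Pooled over libraries, Tnfrsf4 was detected in 64.6% of members, Rora in 72.0%, Tnfsf11 in 25.6% and Cd40lg in 24.4%. In CD8 T cells of the same libraries (the same T cell genes, Cd8a or Cd8b1 detected and Cd4, Foxp3, Trdc and Cd163l1 at 0, 1235 cells) the pooled shares were 19.6%, 42.0%, 4.62% and 0.162%, although these cells were deeper, with median UMIs of 3410.5 to 6490 in Atg7∆/∆ and 2761 to 4739.5 in Atg7+/+ libraries. Pooling mixes cell class with genotype, since most members came from Atg7∆/∆ hosts and most CD8 T cells from Atg7+/+ hosts. Averaged by library, Tnfrsf4 was detected in 63.6% of members in Atg7∆/∆ and 65.6% in Atg7+/+ libraries, and Rora in 75.2% and 56.1%. For Tnfsf11 the averages were 24.3% in Atg7∆/∆ and 28.1% in Atg7+/+ libraries, and for Cd40lg 26.7% and 6.30%. At least 1 of the 4 markers was found in all but 45 members (9.15%), and 27 (5.49%) had all 4. The Cd4 call itself often rested on little: 210 members (42.7%) had a single Cd4 UMI, 131 (26.6%) had 2 and 151 (30.7%) had more. Just inside the other threshold, 57 members (11.6%) had exactly 2 T cell genes, and just outside it 65 cells had 1 T cell gene and met the rest of the rule. A further 618 T cells had none of Cd4, Cd8a, Cd8b1, Foxp3, Trdc and Cd163l1 and entered no class. These unclassed cells were 27.0% ± 7.25 of T cells in Atg7∆/∆ and 16.6% ± 5.91 in Atg7+/+ tumors (mean ± SD over libraries). The libraries of the genotypes overlapped (exact permutation p = 0.0857). After thinning to 1000 UMIs the means were 48.3% in Atg7∆/∆ and 33.2% in Atg7+/+ tumors. Their part in the shares of the classes was not tested.

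The targeted gene could not serve as a check of the labels, since a tag at the 5′ end need not lie in the deleted part. Atg7 had a level of 0.180, 0.149, 0.168 and 0.145 in members of Atg7∆/∆ libraries 3, 4, 7 and 8, against 0, 0.241, 0.293 and 0.219 in Atg7+/+ libraries 1, 2, 5 and 6. The Atg7+/+ libraries with at least 10 members were above all Atg7∆/∆ libraries, by a difference that did not pass the test (log2 difference −0.05, SE 0.05, limma adjusted p = 0.722).

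The first question was whether tumors of autophagy-deficient hosts held a different share of CD4 helper T cells. They made up a larger share of cells in every Atg7∆/∆ tumor than in any Atg7+/+ tumor. As a share of all cells they were 2.76%, 2.77%, 4.56% and 3.34% in Atg7∆/∆ libraries 3, 4, 7 and 8, against 0.349%, 1.01%, 0.511% and 0.588% in Atg7+/+ libraries 1, 2, 5 and 6. Their 95% exact binomial intervals, which cover counting error only, ran from 2.16% to 6.08% over the Atg7∆/∆ libraries and from 0.151% to 1.43% over the Atg7+/+ libraries. The means were 3.36% ± 0.848 in Atg7∆/∆ and 0.616% ± 0.284 in Atg7+/+ tumors (SD, n = 4 each), a 5.46-fold difference (two-sided exact permutation test, p = 0.0286, the smallest that 4 against 4 libraries can give; adjusted over the 2 shares, 0.0286). Shuffled within the barcode sets only, the p was 0.0556, again the smallest possible, with differences of 2.08 percentage points in libraries 1 to 4 and 3.40 points in libraries 5 to 8. The denominator includes malignant cells, taken as Krt8 and Krt18 detected without Ptprc. They were 18 of 3948, 95 of 2454, 89 of 964 and 68 of 5001 cells in Atg7∆/∆ libraries 3, 4, 7 and 8. In Atg7+/+ libraries 1, 2, 5 and 6 they were 1249 of 2295, 1352 of 3153, 3909 of 6070 and 3172 of 5611. The part of this denominator in the difference was not tested.

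Among T cells alone the same order held. Part of this share was already known from an earlier account of these data, so it is no independent support. CD4 helper T cells were 38.2%, 21.1%, 29.1% and 27.2% of T cells in Atg7∆/∆ libraries 3, 4, 7 and 8, against 12.7%, 7.94%, 7.42% and 6.50% in Atg7+/+ libraries 1, 2, 5 and 6. They averaged 28.9% ± 7.12 in Atg7∆/∆ and 8.64% ± 2.77 in Atg7+/+ tumors (SD over 4 libraries each). The exact permutation p was 0.0286, and 0.0556 when shuffled only among libraries of one barcode set. Foxp3-positive CD4 T cells, the suppressive lineage, were also a larger share of T cells, 2.73% ± 0.562 in Atg7∆/∆ and 1.10% ± 0.636 in Atg7+/+ tumors (exact permutation p = 0.0286), from 51 cells in all. CD8 T cells moved the other way, at 23.7% ± 6.96 of T cells in Atg7∆/∆ and 65.5% ± 4.04 in Atg7+/+ tumors (exact permutation p = 0.0286). These shares have the same denominator, so they are linked and are not separate results. The part of the CD8 share in the CD4 helper share of T cells was not tested. Of CD4 helper and CD8 T cells together, CD4 helper cells were 55.1% ± 11.6 in Atg7∆/∆ and 11.5% ± 2.79 in Atg7+/+ tumors. T cells of all kinds were 12.1% ± 3.54 of cells in Atg7∆/∆ and 7.87% ± 4.19 in Atg7+/+ tumors, which overlapped (exact permutation p = 0.2).

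**Figure D2:**
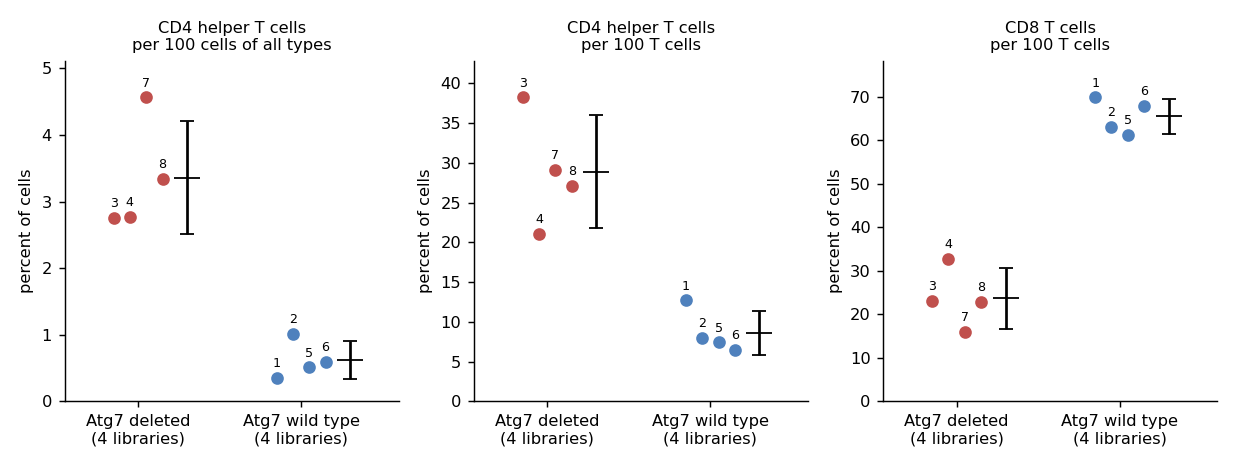
Percent of all cells and of T cells that were CD4 helper T cells, and percent of T cells that were CD8 T cells, 1 numbered point per library with the mean ± SD, Atg7∆/∆ left of Atg7+/+. In each panel the 4 Atg7∆/∆ libraries lie apart from the 4 Atg7+/+ libraries, above them for CD4 helper and below them for CD8 T cells.

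Cd4 signal in cells without T cell genes differed between the genotypes as well. Of cells with 0 T cell genes, 7.42%, 1.56%, 0.643% and 1.15% had a Cd4 UMI in Atg7∆/∆ libraries 3, 4, 7 and 8, against 0.324%, 0.441%, 0.0362% and 0.0799% in Atg7+/+ libraries 1, 2, 5 and 6. These cells include myeloid cells as well as cancer cells. Of malignant cells as defined above, 0 of 18, 2 of 95, 0 of 89 and 0 of 68 had a Cd4 UMI in the Atg7∆/∆ libraries. In the Atg7+/+ libraries it was 1 of 1249, 6 of 1352, 5 of 3909 and 1 of 3172, and the shares overlapped. Every library's share of T cells classed as CD4 helper was above its share of cells with 0 T cell genes that had a Cd4 UMI. How often Cd4 RNA from other cells placed a T cell in the class was not tested. With every cell thinned to 1000 UMIs, CD4 helper T cells were 20.1% ± 7.34 of T cells in Atg7∆/∆ and 5.65% ± 2.19 in Atg7+/+ tumors (exact permutation p = 0.0286). Without cells that had at least 2 markers of another type they were 30.4% ± 6.78 of T cells in Atg7∆/∆ and 8.93% ± 3.39 in Atg7+/+ tumors (exact permutation p = 0.0286). That share rests on 5 T cells in Atg7∆/∆ library 3, 21 in Atg7∆/∆ library 4 and 18 in Atg7+/+ library 1. Members with fewer than 2 such markers made up 1.40% ± 1.45 of all cells, marker-bearing ones included, in Atg7∆/∆ and 0.342% ± 0.197 in Atg7+/+ tumors, which overlapped (exact permutation p = 0.4), with 2 and 6 such members in libraries 3 and 4.

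The members were next set against CD8 T cells of the same library, over the 7 libraries with at least 10 cells of each. CD4 helper T cells were higher than CD8 T cells for 9 of 15 genes of helper activation and costimulation and 9 of 15 of the NF-κB pathway, and lower for 13 of 14 cytotoxic and 20 of 22 cell cycle genes. The 9 activation genes include Cd40lg, Tnfsf11 and Tnfrsf4, which were picked for this pattern. A gene was tested if it reached the detection filter in either cell class. CD4 helper T cells reached it for 11 of the 14 cytotoxic and 13 of the 22 cell cycle genes. The other cytotoxic and cell cycle genes were tested through CD8 T cells only. Of 7842 genes tested, 142 were higher in CD4 helper T cells (1.81%) and 325 were lower (4.14%) at an adjusted p under 0.05 (limma on the mean log value per library, with the library as block). The split changed with the scale, in a comparison where CD8 T cells were deeper, and the part of depth was not tested: 184 were higher and 133 lower on the log2 of mean levels, 98 and 46 of 2876 after thinning to 1000 UMIs, and 75 and 258 with median-ratio scaling of summed UMIs. Of markers of other cell types, 0 of 8 macrophage, 0 of 4 fibroblast, 0 of 3 dendritic and 0 of 3 malignant urothelial genes passed, whereas all 3 tested genes of NK and innate lymphoid cells did, Il1rl1 higher and 2 lower in CD4 helper T cells. Of 18 dissociation response genes, which tissue digestion is known to induce, 4 were higher in CD4 helper T cells (Junb, Dusp1, Btg2 and Hspa1b) and 0 lower; their part in the comparison was not tested.

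The ligand gene Cd40lg was close to absent from CD8 T cells, and the ligand gene Tnfsf11 was low in them. Cd40lg had a level of 1.08, 0.558, 1.70 and 2.31 in CD4 helper T cells of Atg7∆/∆ libraries 3, 4, 7 and 8 and of 0, 0.224, 0.510 and 0.143 in those of Atg7+/+ libraries 1, 2, 5 and 6, whereas in CD8 T cells it was at 0 in 6 libraries and at most 0.0051 in the other two. Tnfsf11 averaged 1.85 ± 0.758 in CD4 helper and 0.116 ± 0.0524 in CD8 T cells (SD, n = 7 libraries), a 16.0-fold difference in level, with every library's CD4 helper cells above its CD8 cells. Tnfrsf4 averaged 6.10 ± 2.09 in CD4 helper and 0.615 ± 0.346 in CD8 T cells, 9.92-fold. Rora averaged 6.63 ± 2.50 in CD4 helper and 2.20 ± 0.660 in CD8 T cells, 3.02-fold. All 4 markers were thus higher in the CD4 helper cells of each tested library, and since they were picked for this pattern their values are a description.

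**Figure D3:**
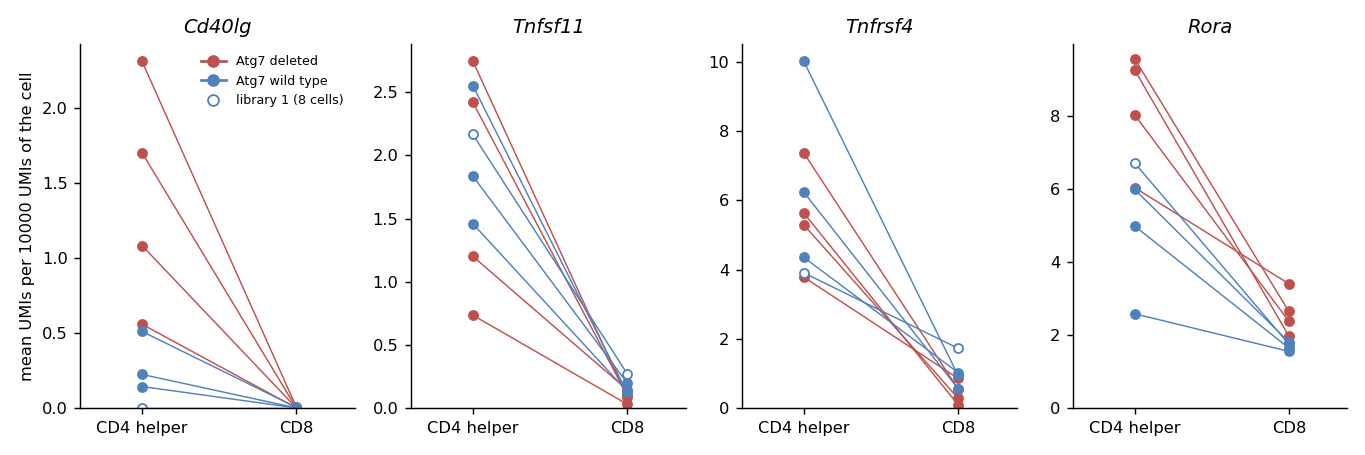
Level (mean UMIs per 10000) of Cd40lg, Tnfsf11, Tnfrsf4 and Rora in CD4 helper and CD8 T cells, with a line joining the cells of a library, Atg7∆/∆ in red, Atg7+/+ in blue and Atg7+/+ library 1 (8 cells) hollow. Apart from Cd40lg in that library, which was 0 in both, every line is higher at the CD4 helper end.

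Of the other helper activation and costimulation genes, Tnfsf8 (CD30L) averaged 1.35 ± 0.846 in CD4 helper and 0.0469 ± 0.0641 in CD8 T cells (limma adjusted p = 1.1e-05). Tnfrsf18, the costimulatory receptor GITR, averaged 4.28 ± 1.39 in CD4 helper and 1.59 ± 0.544 in CD8 T cells (adjusted p = 1.5e-05). Cd28, the receptor for the B7 costimulators, averaged 4.89 ± 1.03 in CD4 helper and 3.03 ± 0.748 in CD8 T cells (adjusted p = 0.024). In all 9 of 15 tested genes of this list were higher and 0 lower, with a median log2 difference of 0.42, against −0.02 over all genes. Cd40lg, Tnfsf11 and Tnfrsf4, which were picked for this pattern, are among the 9 and enter the median. Cd44, Cd69, Tnfrsf9 and Il2ra, general activation genes, did not pass. For the NF-κB list, 9 of 15 were higher and 0 lower, among them Nfkb1 at 5.90 ± 2.47 in CD4 helper and 2.72 ± 1.06 in CD8 T cells (adjusted p = 0.00045) and Rel at 3.13 ± 1.30 in CD4 helper and 1.18 ± 0.495 in CD8 T cells (adjusted p = 0.0018). Nfkb2 and Relb, the other arm of the pathway, did not pass.

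The 12 genes with the largest differences in favor of CD4 helper T cells included Tnfrsf4, Tnfrsf18 and Bhlhe40 of the activation list and genes of several other kinds. Hif1a, the hypoxia-inducible transcription factor, averaged 10.7 ± 2.59 in CD4 helper and 4.62 ± 1.03 in CD8 T cells (log2 difference 1.05, SE 0.14, limma adjusted p = 1.5e-05). It was the 1 gene of 16 tested for glycolysis and hypoxia that passed. Ramp3, a co-receptor for calcitonin-family peptides, averaged 4.16 ± 2.43 in CD4 helper and 0.533 ± 0.238 in CD8 T cells. Odc1, which makes the polyamine putrescine, averaged 18.9 ± 5.69 in CD4 helper and 6.94 ± 1.50 in CD8 T cells. Furin, a proprotein convertase that processes TGF-β, averaged 4.92 ± 2.39 in CD4 helper and 0.812 ± 0.345 in CD8 T cells. Maf, a transcription factor of interleukin 4, 10 and 21 production, averaged 2.70 ± 1.42 in CD4 helper and 0.431 ± 0.265 in CD8 T cells. Bhlhe40, a regulator of helper cytokine production and 1 of the 9 activation genes, averaged 11.2 ± 3.67 in CD4 helper and 4.83 ± 1.33 in CD8 T cells. Junb and the STAT feedback gene Cish were also among the 12 genes highest in CD4 helper T cells.

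Of these 12, 3 are neighbors on chromosome 4. In mm10, Sdf4 lies at chr4:155992872-156013610, Tnfrsf4 at chr4:156013843-156016612 and Tnfrsf18 at chr4:156026164-156028895, all on the plus strand. Sdf4, which encodes a calcium-binding protein of the Golgi, averaged 7.05 ± 2.82 in CD4 helper and 2.49 ± 0.695 in CD8 T cells. How reads at the boundary of Sdf4 and Tnfrsf4 were assigned is not given in the sources used here, so the value of Sdf4 is uncertain.

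The cytotoxic list gave the largest differences of all. Ccl5, a chemokine of effector T cells, had a level of 2.09, 2.64, 3.22 and 4.91 in CD4 helper T cells of Atg7∆/∆ libraries 3, 4, 7 and 8 and of 21.0, 8.29 and 32.4 in those of Atg7+/+ libraries 2, 5 and 6, against 50.6 to 74.3 in CD8 T cells of the same Atg7∆/∆ libraries and 71.3 to 134 in CD8 T cells of the same Atg7+/+ libraries. Its log2 difference between CD4 helper and CD8 T cells was −3.74 (SE 0.15, limma adjusted p = 1.9e-16), and no library's CD4 helper cells reached any library's CD8 cells. Gzmb, the protease granzyme B, averaged 2.76 ± 2.64 in CD4 helper and 17.4 ± 6.27 in CD8 T cells (log2 difference −2.08, SE 0.12). Prf1, the pore-forming protein perforin, averaged 0.477 ± 0.505 in CD4 helper and 2.60 ± 1.57 in CD8 T cells. Of 14 tested cytotoxic genes 13 were lower in CD4 helper T cells and 0 higher, and 10 were lower on each of the log2 scale of mean levels, after thinning and with median-ratio scaling. Of the 14, 11 reached the detection filter in CD4 helper T cells, and the others were tested through CD8 T cells only. Ly6c2, a surface antigen of memory CD8 T cells, averaged 0.801 ± 0.671 in CD4 helper and 12.6 ± 4.21 in CD8 T cells.

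Proliferation genes were lower too. Of 22 cell cycle genes 20 were lower in CD4 helper T cells and 0 higher, and 5 of 13 were lower after thinning. Without thinning, 13 of the 22 reached the detection filter in CD4 helper T cells. The others were tested through CD8 T cells only, so the count of lower genes depends in part on the filter. Mki67, the Ki-67 antigen, averaged 0.224 ± 0.147 in CD4 helper and 0.994 ± 0.338 in CD8 T cells, and Stmn1, a microtubule regulator of mitosis, averaged 0.383 ± 0.273 in CD4 helper and 1.68 ± 0.642 in CD8 T cells. Of 8 inhibitory receptor genes 3 were lower, namely Havcr2 (TIM-3), Cd160 and Entpd1 (CD39), and 0 passed after thinning. No gene passed among 17 tested autophagy genes.

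**Figure D4:**
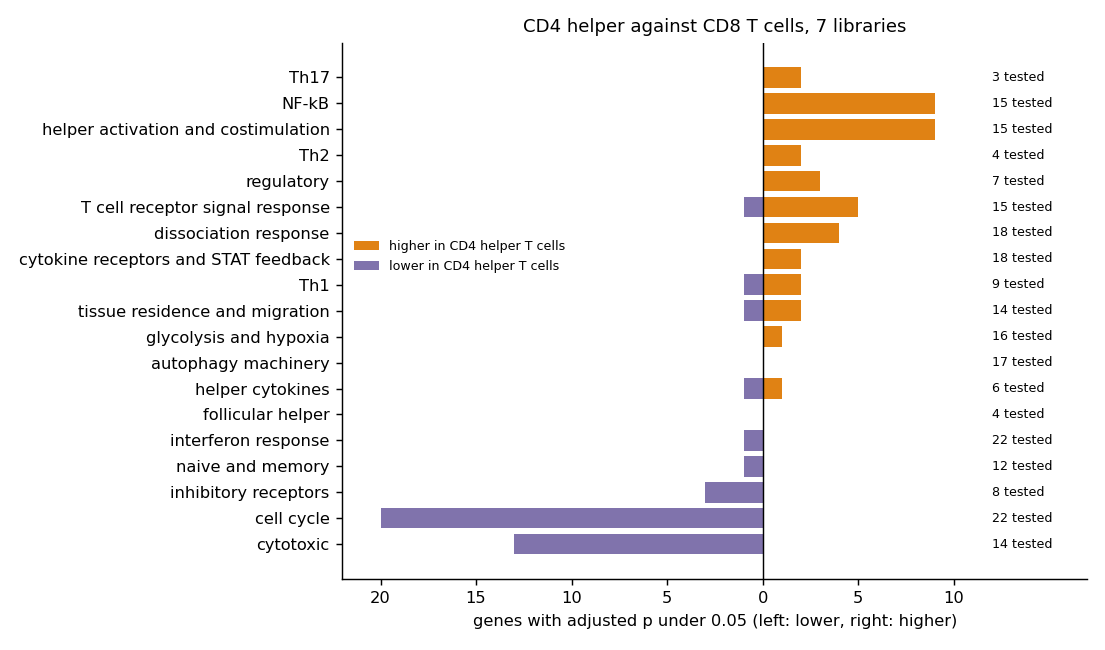
Number of genes per list that were lower (left) or higher (right) in CD4 helper than in CD8 T cells at a limma adjusted p under 0.05, with the number tested on the right. Activation and NF-κB lists have 9 higher genes each, and the cytotoxic and cell cycle lists have 13 and 20 lower genes. Cd40lg, Tnfsf11 and Tnfrsf4, picked for this pattern, are among the 9 activation genes. A gene was tested if either cell class reached the detection filter.

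Among the genes that mark helper states, the Th1 cytokine gene was detected in more members than the Th2 cytokine genes or the follicular helper genes Il21 and Cxcr5. Ifng, the Th1 cytokine, was detected in 28.0% of members, between 27.5% and 29.5% in the 4 Atg7∆/∆ libraries and between 24.2% and 28.1% in the 4 Atg7+/+ libraries. Its level did not pass the test against CD8 T cells, at 2.46 ± 0.811 in CD4 helper and 2.01 ± 1.25 in CD8 T cells (limma adjusted p = 0.81). Tbx21, the Th1 transcription factor T-bet, was detected in 17.3% of members and Gata3, the Th2 factor, in 32.3%. Any of Il4, Il5 and Il13 was detected in 5.28% of members but in 25.0% of the 44 members of Atg7∆/∆ library 7. Il21 or Cxcr5 was detected in 6 members (1.22%). Of the Th1 list, Il18r1 and Il18rap, the 2 chains of the interleukin 18 receptor, were higher in CD4 helper than in CD8 T cells. Of the Th2 list, Areg and Il1rl1 were higher: Areg, the growth factor amphiregulin, averaged 3.51 ± 4.18 in CD4 helper and 0.234 ± 0.185 in CD8 T cells (adjusted p = 0.00031), and Il1rl1, the interleukin 33 receptor ST2, averaged 0.600 ± 0.560 in CD4 helper and 0.0760 ± 0.114 in CD8 T cells (adjusted p = 0.011). Areg varied widely, at 1.36, 1.88, 12.9 and 2.33 in members of Atg7∆/∆ libraries 3, 4, 7 and 8 and at 5.30, 1.96, 1.33 and 2.79 in Atg7+/+ libraries 1, 2, 5 and 6. Of the Th17 list, Maf and Rora were higher, and 0 of 4 tested follicular helper genes passed. Gata3-positive members had Il1rl1 more often, in 20.8% against 6.61% of Gata3-negative members, but they were also deeper, with a median of 3431 against 2601 UMIs.

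Against Foxp3-positive CD4 T cells, Atg7∆/∆ libraries 3 and 8 alone had at least 10 such cells, with 10 and 16. The test over these 2 libraries borrows its spread largely across genes and holds no Atg7+/+ library. Of 6945 genes, 124 were higher in CD4 helper T cells (1.79%) and 180 were lower (2.59%) at an adjusted p under 0.05, and with the 6 libraries that had at least 4 Foxp3-positive cells, 2 of them from Atg7+/+ hosts, the counts were 58 and 111. Ikzf2 (Helios), a transcription factor of regulatory T cells, had a level of 0.255 and 0.897 in CD4 helper T cells of libraries 3 and 8, against 12.5 and 12.2 in Foxp3-positive cells (log2 difference −3.18, SE 0.27, limma adjusted p = 4.8e-28). Il2ra, the high-affinity interleukin 2 receptor chain, had a level of 1.66 and 2.15 in CD4 helper T cells, against 13.5 and 6.82 in Foxp3-positive cells. In all, 7 of 9 tested regulatory genes were lower and 0 higher. Gzmb was lower as well, at 1.48 and 2.93 in CD4 helper T cells against 21.7 and 15.2 in Foxp3-positive cells, while Klrd1, Klrc1, Fasl, Ctsw and Klrk1 of the cytotoxic list were higher. Of these 5, Klrd1, Fasl and Ctsw passed with 6 libraries and none with median-ratio scaling. Tnfrsf4, a marker of the helper cells against CD8 T cells, was lower here, at 3.78 and 7.38 in CD4 helper T cells against 19.5 and 15.9 in Foxp3-positive cells (log2 difference −2.05, SE 0.28). Tnfrsf9 (4-1BB) and Tnfrsf18 were lower too. Rora, also a marker of the helper cells against CD8 T cells, did not pass here (log2 difference 0.008, SE 0.28, limma adjusted p = 0.99). It passed in no alternative setting either.

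The ligands were higher in the helper cells of the 2 libraries, by calls that depended on the setting. Cd40lg had a level of 1.08 and 2.31 in CD4 helper T cells of libraries 3 and 8 and was at 0 in both sets of Foxp3-positive cells (limma adjusted p = 0.0029), and Tnfsf11 had 0.735 and 2.42 in CD4 helper T cells against 0.131 and 0 in Foxp3-positive cells (adjusted p = 0.042). With 6 libraries the adjusted p was 0.078 for Cd40lg and 0.020 for Tnfsf11, after thinning it was 0.045 for Cd40lg and 0.56 for Tnfsf11, and with median-ratio scaling neither passed (0.056 for Cd40lg and 0.11 for Tnfsf11); Tnfsf11 also missed with no detection filter (0.075). Bhlhe40 had 7.45 and 16.8 in CD4 helper T cells against 2.80 and 2.76 in Foxp3-positive cells (adjusted p = 3.9e-08), and Cxcr6, a chemokine receptor of tissue T cells, had 5.36 and 5.94 in CD4 helper T cells against 1.39 and 0.816 in Foxp3-positive cells (adjusted p = 2.8e-05). The collagen gene Col1a2 was among the 12 genes highest in CD4 helper T cells, at 31.6 and 2.84 in CD4 helper T cells against 1.84 and 0 in Foxp3-positive cells of libraries 3 and 8, and both tested fibroblast markers were higher; the part of fibroblast RNA in the comparison was not tested.

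Within the CD4 helper T cells, the genotypes were compared over 4 Atg7∆/∆ and 3 Atg7+/+ libraries. No gene passed: of 6930 genes 0 were higher and 0 lower at an adjusted p under 0.05 (limma, 0% in either direction), the lowest adjusted p was 0.175, and 686 genes had an unadjusted p under 0.05. On the log2 scale of mean levels 3 genes were higher (C3, Arg1 and Fosb) and 2 lower (Krt8 and Ccl5), and with median-ratio scaling of summed UMIs 9 were higher and 5 lower. The 4 Atg7∆/∆ libraries lay wholly above the 3 Atg7+/+ libraries for 570 genes (8.23%) and wholly below for 144 (2.08%), in a comparison where the median depth of members was 2315 to 4344.5 UMIs in the Atg7∆/∆ libraries and 2118 to 2486 UMIs in the 3 Atg7+/+ libraries. A gene detected only in the 4 Atg7∆/∆ libraries could pass the detection filter and one detected only in the 3 Atg7+/+ libraries could not; with a filter over 3 libraries 0 of 7848 genes passed. The differences that follow are therefore values and not calls.

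Nr4a1, an immediate target of T cell receptor signaling that encodes NUR77, had the smallest p among genes higher in Atg7∆/∆ hosts. Its level was 4.66, 2.95, 5.09 and 3.67 in members of Atg7∆/∆ libraries 3, 4, 7 and 8, against 2.52, 0.945, 1.51 and 0.827 in Atg7+/+ libraries 1, 2, 5 and 6 (log2 difference 1.02, SE 0.20, adjusted p = 0.175). All Atg7∆/∆ libraries were above all Atg7+/+ libraries. In cells with 0 T cell genes Nr4a1 had a level of 2.22 to 4.69 in Atg7∆/∆ and 0.551 to 1.11 in Atg7+/+ libraries, so the same order was present outside T cells. Emb, the adhesion protein embigin, had a level of 6.68, 9.98, 6.85 and 7.43 in members of the Atg7∆/∆ libraries, against 2.27, 4.10, 3.23 and 3.30 in Atg7+/+ libraries (log2 difference 1.27, SE 0.31, adjusted p = 0.385), again without overlap. Furin had 7.51, 5.70, 7.03 and 5.43 in the Atg7∆/∆ libraries, against 7.67, 1.59, 1.64 and 5.54 in the Atg7+/+ libraries (log2 difference 1.04, SE 0.25, adjusted p = 0.385). For Furin the 8 cells of Atg7+/+ library 1, which the fit leaves out, and library 6 reached the Atg7∆/∆ levels. Fosb, an AP-1 subunit of the immediate early response, had 6.81, 3.75, 2.84 and 2.75 in the Atg7∆/∆ libraries, against 2.32, 0.696, 1.15 and 0.418 in the Atg7+/+ libraries (adjusted p = 0.385). The other genes of smallest p in this direction were Plin2, Xylt1, Fgl2, Susd6, Gadd45b and Mitd1, each with an adjusted p of 0.385. Xylt1 and Mitd1 reached the detection filter in the 4 Atg7∆/∆ libraries only, so they were tested through the group in which they were higher.

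Of the 4 markers, Cd40lg had a log2 difference of 0.46 (SE 0.13, adjusted p = 0.431) and did not pass. It was detected in 26.6%, 20.6%, 25.0% and 34.7% of members in Atg7∆/∆ libraries 3, 4, 7 and 8, against 0 of 8 cells, 6.25%, 12.9% and 6.06% in Atg7+/+ libraries 1, 2, 5 and 6. The share in every Atg7∆/∆ library was above that in every Atg7+/+ library, while after thinning to 1000 UMIs the shares were 12.3%, 6.06%, 4.65% and 16.6% in Atg7∆/∆ libraries 3, 4, 7 and 8 and 3.23% and 3.13% in Atg7+/+ libraries 2 and 6, with none in libraries 1 and 5. Rora had a level of 6.03, 8.03, 9.26 and 9.56 in members of the Atg7∆/∆ libraries, against 6.71, 2.58, 4.98 and 5.99 in Atg7+/+ libraries (log2 difference 0.90, SE 0.34, adjusted p = 0.431). The levels of Tnfsf11 overlapped, at 0.735, 1.20, 2.75 and 2.42 in the Atg7∆/∆ libraries and 2.17, 2.55, 1.84 and 1.46 in the Atg7+/+ libraries (log2 difference −0.12, SE 0.16, adjusted p = 0.822). Tnfrsf4 overlapped as well, at 3.78, 5.30, 5.64 and 7.38 in the Atg7∆/∆ libraries and 3.91, 10.0, 4.35 and 6.24 in the Atg7+/+ libraries (log2 difference −0.28, SE 0.34, adjusted p = 0.793).

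Grouped by list, no member of any list passed. With median-ratio scaling, Nr4a1 and Egr1 of the receptor list, Fosb and Egr1 of the dissociation list and Emb of the residence list were higher and the malignant markers Krt8 and Krt18 lower (limma adjusted p = 0.047 each), and Krt8 was also lower in a fit with a term for the barcode set (adjusted p = 0.029). Over all 6930 genes 64.3% of differences were positive, 8.23% lay above and 2.08% below without overlap of the mean log values of the 7 libraries fitted, and the counts below are to be read against these shares. The T cell receptor signal response list had a median log2 difference of 0.41, against 0.04 over all genes, with 13 of 15 genes positive and 7 without overlap (Nr4a1, Egr1, Nfkbid, Dusp5, Cish, Pim1 and Furin), all higher in Atg7∆/∆ hosts. Without libraries 3 and 4 its median was 0.51, with 11 of 12 positive, against 0.01 over all genes. The NF-κB list had a median of 0.28, with 5 of 15 genes without overlap, all higher, and a median of 0.33 without libraries 3 and 4. The dissociation response list had a median of 0.57, with 17 of 18 positive and 5 without overlap, and a median of 0.23 without libraries 3 and 4; Egr1 is in this list and in the receptor list. The activation list had a median of 0.16 with 3 of 15 genes without overlap (Cd40lg, Cd44 and Cd69). Autophagy genes had a median of 0.06 with 11 of 17 positive, close to the share over all genes. Of the inhibitory receptors and of the regulatory genes 1 of 7 each was positive, with medians of −0.18 and −0.20. All 3 tested fibroblast markers lay without overlap above, with a median of 1.02, and all 8 tested macrophage markers were positive with a median of 0.25 and 0 without overlap; their part in these values was not tested.

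**Figure D5:**
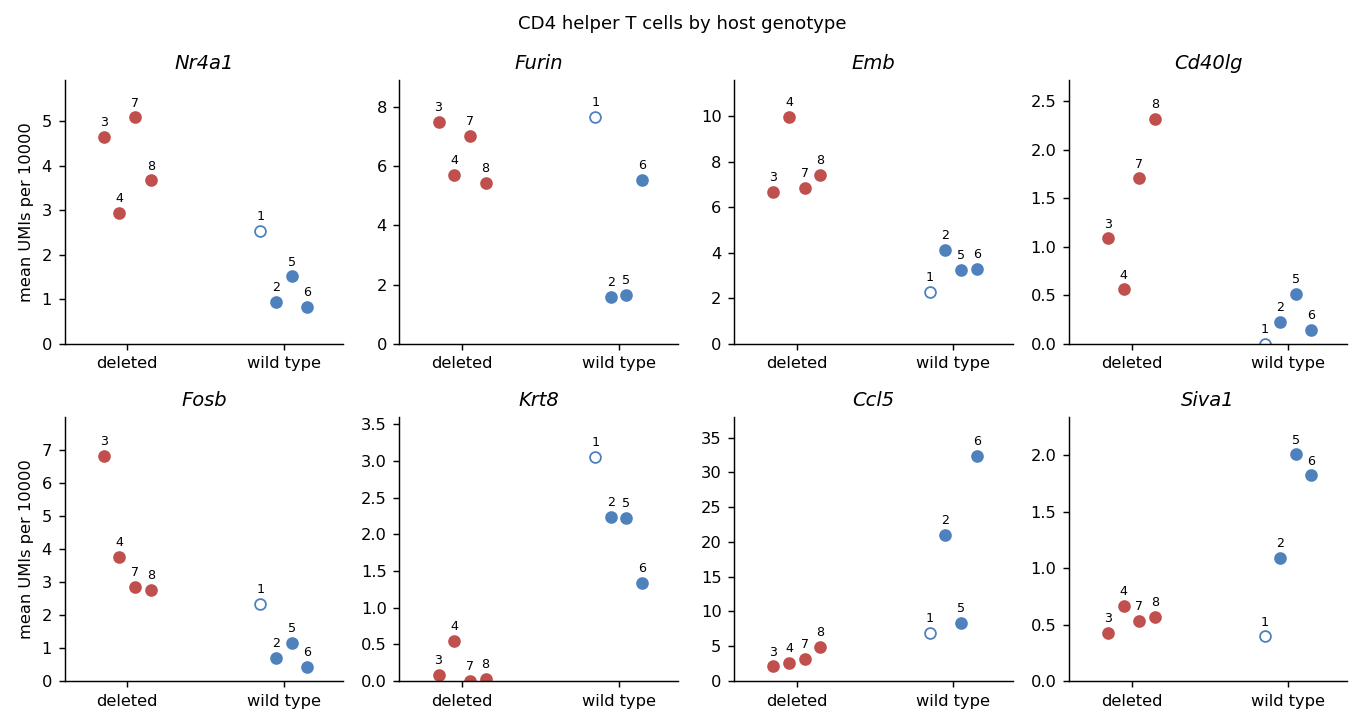
Level (mean UMIs per 10000) of Nr4a1, Furin, Emb, Cd40lg, Fosb, Krt8, Ccl5 and Siva1 in CD4 helper T cells, 1 point per library, Atg7∆/∆ left of Atg7+/+. Nr4a1, Emb, Cd40lg and Fosb lie higher in all 4 Atg7∆/∆ libraries and Krt8 and Ccl5 lie lower, none of them past an adjusted p of 0.05.

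In the other direction, Krt8, a keratin of the urothelial cancer cells, had the smallest p. Its level was 0.0862, 0.550, 0 and 0.0299 in members of Atg7∆/∆ libraries 3, 4, 7 and 8, against 3.06, 2.24, 2.22 and 1.34 in Atg7+/+ libraries 1, 2, 5 and 6 (log2 difference −0.58, SE 0.11, adjusted p = 0.175). In cells with 0 T cell genes Krt8 had a level of 0.243 to 2.17 in Atg7∆/∆ and 8.92 to 12.3 in Atg7+/+ libraries. Krt18, its partner keratin, had a log2 difference of −0.35. Ccl5 had a level of 2.09, 2.64, 3.22 and 4.91 in members of the Atg7∆/∆ libraries, against 6.93, 21.0, 8.29 and 32.4 in the Atg7+/+ libraries, without overlap (log2 difference −0.94, SE 0.26, adjusted p = 0.431). In cells with 0 T cell genes the order was the opposite, with a Ccl5 level of 4.20 to 5.50 in Atg7∆/∆ and 0.953 to 2.90 in Atg7+/+ libraries. CD8 T cells of the fitted libraries had higher Ccl5 levels, as given above, and the part of their RNA was not tested. Siva1, a pro-apoptotic gene, had 0.426, 0.664, 0.534 and 0.570 in members of the Atg7∆/∆ libraries, against 0.395, 1.09, 2.01 and 1.82 in the Atg7+/+ libraries, where library 1 lay below them (log2 difference −0.48, adjusted p = 0.385). Srgap3, Mt3, Hist1h1e, 1300002E11Rik and Emp2 were also among the 10 of smallest p, with log2 differences of −0.15 to −0.39.

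Whether the genotype difference of CD4 helper T cells differed from that of CD8 T cells was tested for 7842 genes, and 0 passed in either direction (limma, 423 at an unadjusted p under 0.05, lowest adjusted p 0.429). In CD8 T cells alone 0 of 7750 genes passed between the genotypes. The 5 genes of smallest p in the positive direction were Cd40lg, Furin, Cx3cr1, Cxcr6 and B4galnt4, and those in the negative direction included Trbc1, 1300002E11Rik, Itga4 and Ccr7. The difference of differences was 0.46 for Cd40lg (SE 0.10, adjusted p = 0.429), which was at 0 in most CD8 samples, and 0.73 for Furin (SE 0.17, adjusted p = 0.429). Cd40lg passed in 2 alternatives, with libraries weighted by their cells (0.52, adjusted p = 0.0459) and without libraries 3 and 4 (0.62, adjusted p = 0.0179).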

How the data were processed

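Natural log values per gene and cell were deposited by the authors, ln(1 + UMIs per 10000 UMIs of the cell) as the values show: 100% of values became whole UMIs within 0.01 UMI once unlogged, and each cell summed to 10000. Cell Ranger 2.1, Seurat 3.0 and mm10 are named in the submitters' processing notes; no filter on cells is stated there, and cells in the files had at most 20.0% mitochondrial UMIs and 5000 genes. Symbols were matched to the GENCODE annotation of mm10 (98.7%).

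The cells and gene lists were chosen with earlier results of these data known. Member cells of a library were averaged on the deposited log value, put in log2 units, and libraries were the replicates. Such differences understate folds of low genes. limma 3.58.1 (R 4.3.3, eBayes with trend, Benjamini-Hochberg over all genes tested) was used for libraries with at least 10 cells per class and for genes detected in at least 5% of cells in at least 4 libraries, without the selection genes. CD4 helper against CD8 and Foxp3-positive cells used the library as block. Between cell classes a gene was tested if either class reached the filter. Against Foxp3-positive cells, with 2 libraries, the filter asked for detection in both. A count model had been planned for the case that whole-number counts were deposited, and limma on log values took its place. Shares were tested with exact permutation (scipy 1.17.1). Scripts were tested on simulated data. No doublet caller was run. Genes were named by rank: the 12 called genes of largest difference per direction with the same sign in every library (against CD8 and Foxp3-positive cells), the 10 of smallest p per direction where fewer passed (genotype), the 5 of smallest p per direction (difference of differences), and examples from the lists; some genes are not reported here. Alternatives were another filter, scale, normalization, depth, cell filter, weights, a term for the barcode set and leaving out each library; those on libraries 3 and 4, on libraries with fewer cells and on a filter over 3 libraries were chosen after seeing the data.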

Additional observations from a re-analysis of the deposited data

Results flagged for a closer look

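In groups of 4 libraries, 4 of 52 sets of values had a library far from the others by Dixon's test, where chance gives about 1 in 20. In CD4 helper T cells of Atg7∆/∆ hosts, library 4 had the high level of both keratins, 0.550 for Krt8 and 0.533 for Krt18 (mean UMIs per 10000). In CD4 helper T cells of Atg7+/+ hosts, Plin2, which coats lipid droplets, had a level of 2.71 in library 1, which rests on 8 cells, and Mitd1, a gene of cytokinesis, had a level of 0.0341 in library 5. The fits between genotypes leave library 1 out.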

How the results depend on the processing

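No paired analysis was possible because the genotypes share no replicate number. Leaving out each library gave share differences of 2.34 to 2.94 percentage points of all cells and 17.1 to 22.9 of T cells (exact permutation p = 0.0286 each), 0 genes between the genotypes, 96 to 140 higher and 181 to 372 lower genes against CD8 T cells (181 without library 4 and 190 without library 8, both Atg7∆/∆), and 0 to 1 for the difference of differences (Ramp3 without Atg7∆/∆ library 7). Exact permutation within the barcode sets gave p = 0.0556 for 2.74 and 20.3 points, and leaving out libraries 3 and 4, where 0.0667 is the smallest p, gave 3.34 and 19.5 points (p = 0.0667). Counting only members with fewer than 2 markers of another type, the difference in the share of all cells was 1.06 points (exact permutation p = 0.4); without cells holding 2 or more such markers, 176 genes were lower than in CD8 T cells and 1 passed the difference of differences. Between genotypes, 3 genes were higher and 2 lower on the log2 of mean levels, 9 and 5 with median-ratio scaling, and 1 lower (Krt8) with a term for the barcode set. Against CD8 T cells, 26 were higher and 68 lower with no detection filter, 75 higher with median-ratio scaling, 80 higher and 134 lower without libraries 3 and 4, 133 lower on the log2 of mean levels, 46 lower after thinning and 561 lower with weights; of these lists 67 (of 75) and 77 (of 80) higher genes were shared with the main 142. Against Foxp3-positive cells, 47 were higher and 115 lower with no detection filter, 76 higher at 10% detection, 229 higher on the log2 of mean levels, 28 higher and 23 lower with median-ratio scaling, 85 lower after thinning, and 58 higher and 111 lower with 6 libraries; stricter cell filters and settings without library 3 or 8 left too few cells. The difference of differences gave 1 gene on the log2 of mean levels (Ccl5), 3 with weights and 2 without libraries 3 and 4. For Tnfsf11 between genotypes the difference was 0.0934 without cells holding other markers and 0.0805 without libraries 3 and 4, and for Tnfrsf4 it was 0.0201 without such cells and ranged from −0.514 (without Atg7+/+ library 5) to 0.00744 (without Atg7+/+ library 2). The cause of these changes was not tested. Of the single genes named, 487 alternative values against CD8 T cells kept direction and call and 6 lost the call (Junb, Cish, Hmgb2, Ctla2a and Cd40lg), and against Foxp3-positive cells 171 kept and 20 lost it, over 12 genes. Depth limits the rare transcripts: 42.7% of members were placed by 1 Cd4 UMI.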

Other observations

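Other states were rare or shared among the CD4 helper T cells. Mki67 or Top2a, which mark dividing cells, was detected in 16.1% of the 492 members. Gzmb was detected in 15.9%, Ikzf2 in 11.4%, Csf2 (GM-CSF) in 7.52% and Il2 in 3.86%. Il1rl1 was detected in 15.1% ± 6.79 of members in Atg7∆/∆ and 2.35% ± 1.57 in Atg7+/+ libraries (SD, n = 4 each), and its level did not pass between the genotypes (limma log2 difference 0.28, SE 0.10, adjusted p = 0.431); it reached the detection filter in the 4 Atg7∆/∆ libraries only. Ifng and Gata3, of opposed helper states, met in 55 cells: 39.9% of Ifng-positive and 29.4% of Ifng-negative members had Gata3, with median depths of 3760 and 2628 UMIs, and Tbx21 was found in 24.6% of Ifng-positive and 14.4% of Ifng-negative members.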
